A study of Mus musculus with 6 samples.

Results

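The genes described here are 10 antiviral genes induced by type I interferon: the oligoadenylate synthetase genes Oas1a, Oas2, Oas3 and Oasl2, the tetratricopeptide repeat genes Ifit1, Ifit2 and Ifit3, the ubiquitin-like modifier gene Isg15, its protease gene Usp18 and the transcription factor gene Irf7. They were taken by name, as every probe annotated to one of these symbols, and gave 16 of the 45281 probes on the array and 10 of 19057 named genes. The group was put together with the difference between genotypes already known, with Oas2 as its leading gene, so the knockout and wild type values of these genes are a description, and no test of that difference is used in their support. Total RNA of the fundic gastric mucosa, the acid-secreting part of the stomach lining, was measured on Illumina bead arrays from C57Bl/6Ncr mice 3 months old, in 3 wild type and 3 Lasp1 knockout samples. Lasp1 encodes an actin-binding protein that is abundant in parietal cells. The labels do not give the allele, say whether all cells carry the deletion, or state that the samples came from separate animals, and any p-value measures the spread between these samples, which may be technical.

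Type I interferons are secreted when cells sense foreign or misplaced nucleic acid, and they signal through the receptor chains IFNAR1 and IFNAR2 and the kinases JAK1 and TYK2. The signal ends at a DNA element in the promoters of antiviral genes called the interferon-stimulated response element. Its core repeats the bases GAAA, and interferon regulatory factors bind the same repeat. In the gut, epithelial cells and resident immune cells keep a low level of such genes without infection.

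The promoters of the genes were searched for that core, written as GAAANNGAAA on both strands, in the 250 bases before each start site given by RefSeq (build GRCm38.p6). Of the 10 genes, 8 were in the promoter table (not Oas2 and Usp18), and 5 of these 8 held at least 1 match: Isg15, Ifit3, Ifit1, Oas1a and Oas3. Over all genes of the table, 3.46% (936 of 27025) held one in the same window. Oasl2, Irf7 and Ifit2 had no match in these windows, which says only that these letters were not there. The 160 bases before the start site are shown for the 5 genes with a match, because the same element occurs both in genes that were measured above background here and in genes that were not. Sequences run 5′ to 3′ on the gene's own strand, and capitals mark the matches.
Isg15 (chr4:156200819-156200978, minus strand): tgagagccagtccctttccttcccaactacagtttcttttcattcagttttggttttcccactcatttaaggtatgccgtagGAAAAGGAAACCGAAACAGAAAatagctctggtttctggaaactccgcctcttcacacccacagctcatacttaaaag
Ifit3 (chr19:34583369-34583528, plus strand): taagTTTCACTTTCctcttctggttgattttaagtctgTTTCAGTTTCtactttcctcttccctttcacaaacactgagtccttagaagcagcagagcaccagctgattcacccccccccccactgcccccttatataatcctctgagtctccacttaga
Ifit1 (chr19:34640729-34640888, plus strand): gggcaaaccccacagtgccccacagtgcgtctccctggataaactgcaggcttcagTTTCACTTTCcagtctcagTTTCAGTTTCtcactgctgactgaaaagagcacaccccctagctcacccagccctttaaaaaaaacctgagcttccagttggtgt
Oas1a (chr5:120907526-120907685, minus strand): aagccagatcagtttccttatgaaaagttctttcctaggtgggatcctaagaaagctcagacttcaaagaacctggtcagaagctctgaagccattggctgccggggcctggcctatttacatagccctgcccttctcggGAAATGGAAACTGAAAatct
Oas3 (chr5:120777660-120777819, minus strand): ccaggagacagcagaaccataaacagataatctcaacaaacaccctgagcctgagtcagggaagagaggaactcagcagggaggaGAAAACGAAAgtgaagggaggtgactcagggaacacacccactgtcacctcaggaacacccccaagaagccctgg

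In Isg15, 3 matches overlap in one run that starts 78 bases before the start site. Oas1a holds 2 overlapping matches, which start 20 and 14 bases before it. Ifit3 and Ifit1 hold 2 separate matches each, on the opposite strand, and Oas3 holds 1. The same core was found in 8 of 9 promoters of interferon-inducible GTPase genes, 10 of 17 of interferon ligand genes and 0 of 5 of interferon receptor genes. A match is a description of the sequence and does not show that a factor bound it.

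Every array had been scaled by the authors to a median intensity of 1000. No value lay near 0, which reads as intensities without background subtraction, though no label states this step. Background was read as the brightest of 26 probes of Y-linked genes on the same array (1061 to 1212). The X-inactivation transcript Xist read 53197 to 85195 over the 6 samples on probe ILMN_1224091, so all of them read as female. Lasp1 itself was lower in the knockout, at 177315 to 275068 in wild type and 88521 to 111002 in knockout mucosa on its brightest probe, ILMN_2879746. Signal far above background thus remained, at 40.6% of wild type by mean log2 values. ILMN_2879745 was also lower without overlap (33.3%), while ILMN_2596851, above background on 1 wild type array only, overlapped (log2 difference -0.21). By limma each of these probes had an adjusted p of 0.994. Transcripts of other tissues marked some arrays. Pancreatic acinar genes were highest on wild type replicate 3 (Cpa1 at 449183, at most 6865 elsewhere). Most of them, though not Cela1 or Zg16, were next highest on knockout replicate 3. Cela2a read 58913 there, 647587 on wild type replicate 3 and 1288 to 2400 on the other arrays. Squamous epithelial genes stood out on wild type replicate 2 and knockout replicate 1 (Lor at 274920 and 399114, at most 10048 elsewhere). Smooth muscle genes did so on knockout replicate 1 (Myh11 at 23458, at most 5590 elsewhere). On wild type replicate 3 the fewest probes lay above background, 35.8% of all probes, against 39.4% to 45.8% on the other arrays. The parietal cell genes Atp4a and Atp4b, the subunits of the proton pump, read 438485 to 539091 over the 6 arrays.

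Of the 10 genes, 6 were above background on all 6 arrays: Oas2, Oasl2, Ifit3, Isg15, Irf7 and Usp18. All of these had a higher mean in Lasp1 knockout than in wild type mucosa, by 1.27-fold (Isg15) to 1.76-fold (Oas2). Ifit2 was above background on 5 arrays by its brightest probe and had group means of 1328.9 in wild type and 1329.7 in knockout, and Oas1a, Oas3 and Ifit1 lay at background. If background is still part of the values, as they read, fold changes of dim probes are understated. In these bulk samples, more cells that express a gene and more RNA per cell cannot be told apart.

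**Figure D1:**
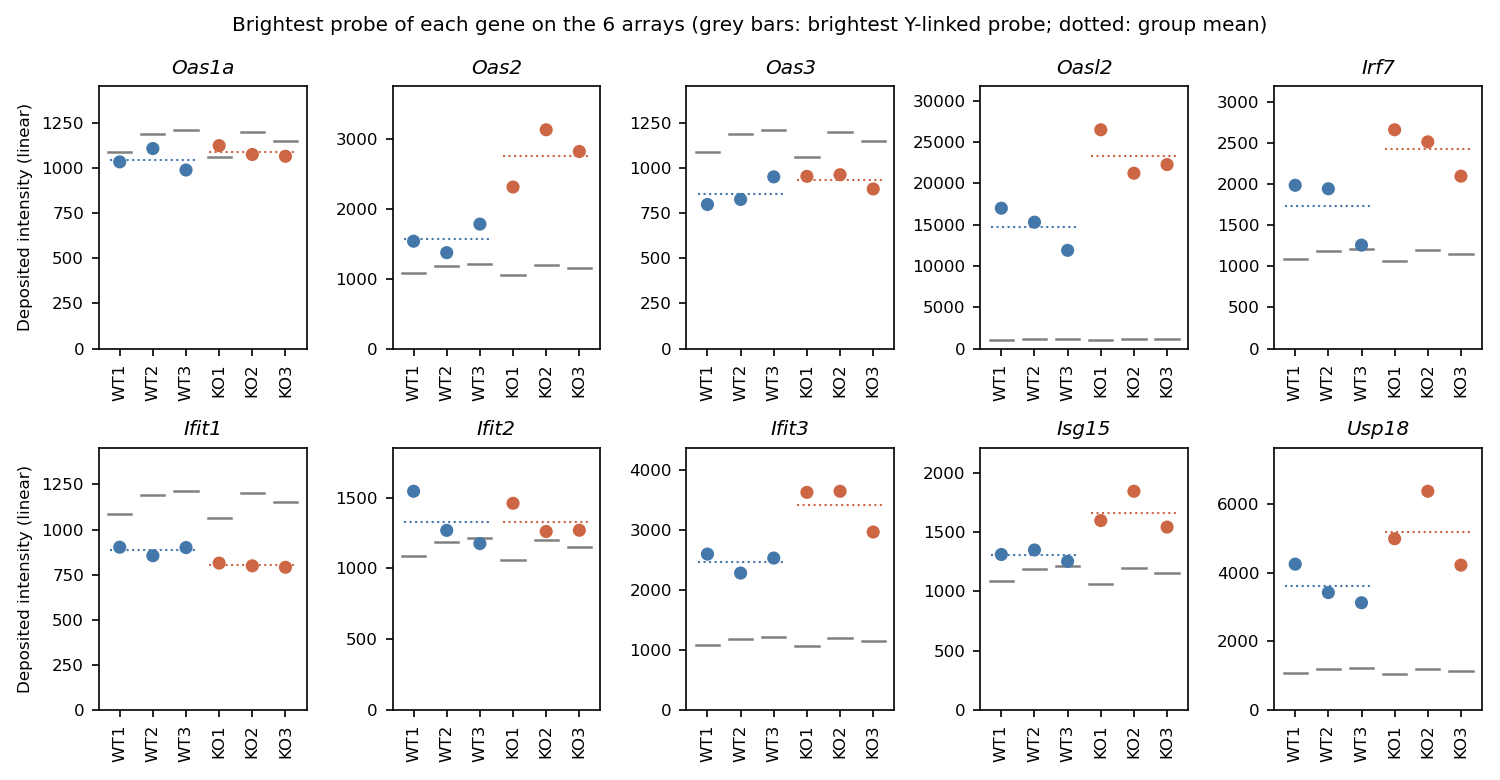
Deposited intensity (linear axis from 0) of the brightest probe of each of the 10 genes on the 3 wild type (WT) and 3 Lasp1 knockout (KO) arrays, with dotted lines at the group means and grey bars at the brightest Y-linked probe of each array. The knockout points of Oas2, Oasl2, Ifit3, Isg15 and Irf7 lie above all wild type points, while Oas3 and Ifit1 lie under the grey bars on every array.

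The oligoadenylate synthetases make short 2′-5′ linked adenylate chains when they bind double-stranded RNA, and these chains activate RNase L, which degrades viral and cellular RNA. In replicate order, the Oas2 intensity was 1538, 1374 and 1783 in wild type and 2314, 3134 and 2823 in knockout mucosa. No knockout value came as low as a wild type value, and the gap between the groups lay from 1783 to 2314. The means were 1565 ± 206 and 2757 ± 414 (SD, n = 3 each). This is a log2 difference of 0.81 (SE 0.16, 1.76-fold), the largest among the 10 genes. Oas2 had 1 named probe.

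Oasl2 encodes an oligoadenylate synthetase-like protein with ubiquitin-like domains. Its brightest probe, ILMN_2954868, read 16993, 15302 and 11895 in wild type and 26489, 21231 and 22274 in knockout mucosa. The groups did not overlap, and wild type replicate 3 was the lowest array. The log2 difference was 0.67 (SE 0.17, 1.59-fold). A dimmer probe of the gene, ILMN_2599154, read 1845, 1614 and 1452 against 2255, 1860 and 1992, again without overlap, with a log2 difference of 0.32 (SE 0.14). The last probe, ILMN_2552783, lay at background on 5 of 6 arrays (866 to 945 in wild type, 941 to 1122 in knockout, log2 difference 0.20) and its groups overlapped. The difference thus became smaller from the brightest to the dimmest probe of Oasl2.

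Oas1a, an oligoadenylate synthetase, stood at 1034, 1108 and 989 in wild type and at 1124, 1075 and 1065 in knockout mucosa, above background on knockout replicate 1 alone. The values overlapped, with a log2 difference of 0.06 (SE 0.11). Oas3, the large synthetase built of repeated units, lay below background on every array on both of its probes (784 to 1021 over all 12 values). Its probes differed in sign, with log2 differences of 0.13 and -0.08. For Oas1a and Oas3 these arrays give no measurable level in most samples, so a difference between genotypes was not detectable.

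IFIT proteins bind viral RNA that lacks the methyl marks of host transcripts and block its translation. Ifit3, a partner that stabilises IFIT1 on RNA, read 2595, 2279 and 2529 in wild type and 3622, 3640 and 2962 in knockout mucosa on its brightest probe, ILMN_2944666. No knockout value fell within the wild type range. The log2 difference was 0.46 (SE 0.13, 1.38-fold). Its other probe, ILMN_1230458, lay at background on all arrays (892 to 1049), with a log2 difference of -0.0026.

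Ifit2, which promotes cell death and restricts RNA viruses, had a pair of probes close to background. ILMN_2981169, above background on 5 arrays, read 1544, 1268 and 1175 in wild type and 1459, 1260 and 1269 in knockout mucosa, and ILMN_2981167, above background on 2 arrays, read 1288, 1122 and 1006 against 1227, 1055 and 947. Both probes overlapped between the groups, with log2 differences of 0.01 (SE 0.15) and -0.08 (SE 0.15). Ifit1, which recognises the cap of foreign RNA, lay at background everywhere, at 902, 855 and 900 in wild type and 814, 799 and 791 in knockout mucosa. Its knockout values lay below its wild type values (log2 difference -0.14, SE 0.07), but all 6 were under the background of their array, so they give no order of transcript levels.

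**Figure D2:**
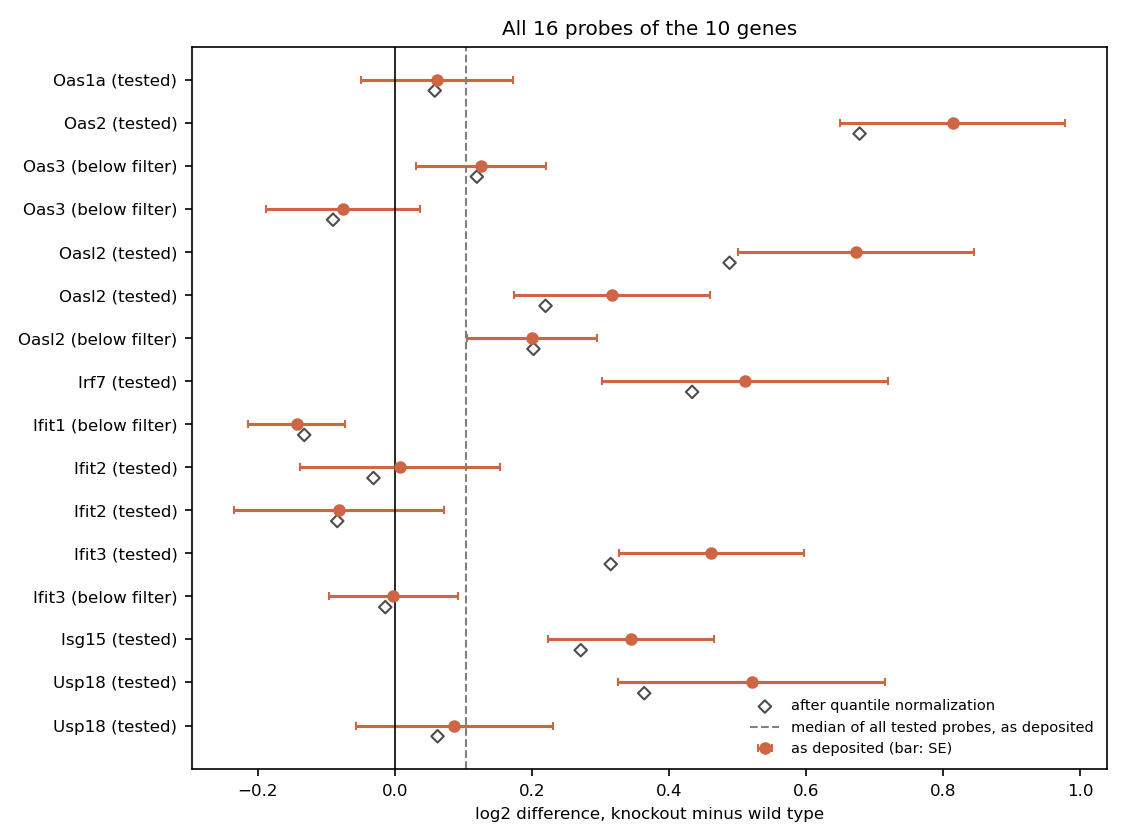
Log2 difference (knockout minus wild type) of all 16 probes of the 10 genes, with the standard error of the limma fit as a bar, and the same difference after quantile normalization as an open diamond. Probes of a gene are ordered from the brightest down. The brightest probes of Oas2, Oasl2, Usp18, Irf7, Ifit3 and Isg15 lie between 0.34 and 0.81, and those after quantile normalization between 0.27 and 0.68.

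Isg15 is a ubiquitin-like protein that is attached to other proteins after interferon exposure, and Usp18 removes it and also dampens signalling at IFNAR2. Isg15 read 1312, 1350 and 1254 in wild type and 1598, 1845 and 1543 in knockout mucosa. The wild type values lay close above background, and the knockout values were all higher (log2 difference 0.34, SE 0.12, 1.27-fold). Usp18 read 4251, 3423 and 3127 against 4991, 6374 and 4223 on its brightest probe, ILMN_3131679. The groups overlapped by a narrow margin, with knockout replicate 3 just under wild type replicate 1. The log2 difference was 0.52 (SE 0.19, 1.43-fold), and the other probe, ILMN_3054914, was above background on 1 array only (972 to 1278 over the 6 arrays, log2 difference 0.09).

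Irf7 is the transcription factor that amplifies the expression of interferon alpha genes. It read 1985, 1943 and 1258 in wild type and 2660, 2513 and 2096 in knockout mucosa. The groups were separate, but wild type replicate 3 stood well below the other wild type arrays and near its background of 1212. The log2 difference was 0.51 (SE 0.21, 1.42-fold), and 0.30 without wild type replicate 3.

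By the brightest probe, 9 of 10 genes were higher in the knockout, where 76.9% of the 22640 tested probes were, and the median log2 difference was 0.40 against 0.10 over all tested probes. The exception was Ifit1, which like Oas3 lay under the intensity filter and was not tested. Leaving out single arrays gave 8 or 9 genes. The groups did not overlap in 5 genes with the knockout higher and in 1 with it lower, against 6.17% and 1.02% of tested probes. The gene with it lower was Ifit1, under background on every array. Of the 10, 8 had a mean intensity above that of the median probe and entered the test. All 8 were higher in the knockout, with a median of 0.49. By the brightest probe, 79.5% of the 11868 tested named genes were higher, with a median of 0.12. Groups were separate with the knockout higher in 5 of the 8, against 791 of the 11868, and with it lower in 0, against 97. By limma, 0 of these 8 passed an adjusted p of 0.05 over all probes, against 0.00883% of tested probes (2 of 22640), and 6 had an unadjusted p under 0.05, against 1.73% of tested probes (392 of 22640). Nothing is read from these counts, since the genes were chosen on this contrast. With array weights limma called 5 of the 8, where it called 8.02% of all probes, but that fit gave wild type replicate 2 a weight of 38.8 and every other array at most 1.60, and the estimate of the weights stopped before its convergence tolerance was reached.

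After quantile normalization, which took the median of all tested probes from 0.10 to 0.0029, the median of the 10 genes was 0.29. The differences were then 0.68 for Oas2, 0.49 for Oasl2, 0.43 for Irf7, 0.36 for Usp18, 0.31 for Ifit3 and 0.27 for Isg15. Ifit2 turned to -0.03. The scaling thus changed the size of the differences, and none of the 6 genes above background changed sign in the 18 alternatives run. Other filters, other variance models and a block on the replicate number leave these differences as they are. Those settings could not change a sign.

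The arrays also carry a number in their titles, 1 to 3 for wild type replicates 1 and 2 and knockout replicate 1, and 4 to 6 for the others. The labels do not explain it. With genotype in the model, 0 of the 8 tested genes passed for the arrays numbered 4 to 6 against those numbered 1 to 3 (limma), where 0.724% of all probes did (164 of 22640). An unadjusted p under 0.05 was found for 3 of the 8 and for 28.2% of all probes (6386 of 22640), so that the share in these genes lay near that of the whole array. After quantile normalization Oas2 did pass, higher on the arrays numbered 4 to 6 by 0.57 (limma adjusted p = 0.0362), where 2.79% of all probes passed. Cyclic loess normalization and normexp background correction gave the same call for Oas2 (differences of 0.55 and 0.51, adjusted p = 0.0436 and 0.0372). In the values as deposited its difference was 0.33 (adjusted p = 0.138, with a range of 0.0362 to 1 over all 15 settings, of which 3 gave a call). Oasl2 differed by -0.05 after quantile normalization (limma adjusted p = 0.813). Whether Oas2 and Oasl2 differ from each other in this respect was not tested.

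Within the arrays numbered 1 to 3, the knockout difference of Oas2 was 0.67, and within those numbered 4 to 6 it was 0.74. Oasl2 differed by 0.72 and 0.87, Irf7 by 0.44 and 0.87, Usp18 by 0.39 and 0.73, Ifit3 by 0.58 and 0.38 and Isg15 by 0.26 and 0.43. Each of these values rests on a single array of one genotype, knockout replicate 1 or wild type replicate 3. Over all tested probes the median of the same difference was 0.04 within numbers 1 to 3 and 0.29 within 4 to 6. With the title number as a block the difference of Oas2 was 0.70 and that of Oasl2 0.79.

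The genes did not share one profile over the arrays. After each of the 8 tested genes was centred on its own mean, wild type replicate 3 was the lowest array for 6 of them, all but Oas2 and Ifit3, which were lowest on wild type replicate 2. The highest array was knockout replicate 2 for 4 genes (Oas2, Ifit3, Isg15 and Usp18) and knockout replicate 1 for 3 (Oas1a, Oasl2 and Irf7), and wild type replicate 1 for Ifit2. Averaged over the 8 genes, the centred log2 values were -0.09, -0.21 and -0.33 on wild type replicates 1 to 3 and 0.25, 0.29 and 0.10 on knockout replicates 1 to 3. The share of probes above background was also lowest on wild type replicate 3, and its part in these values was not tested.

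**Figure D3:**
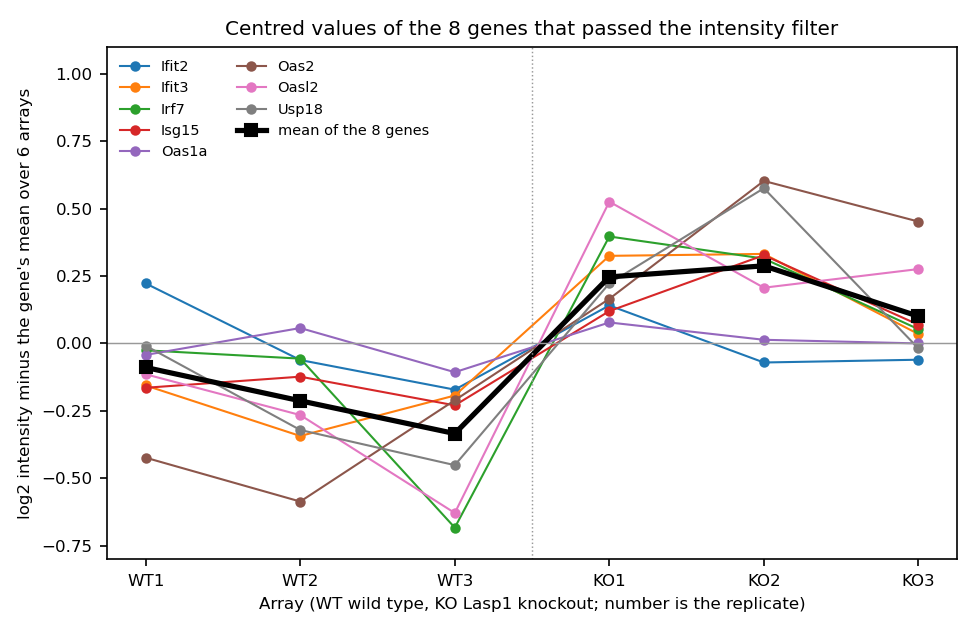
Log2 intensity of each of the 8 tested genes minus that gene's mean over the 6 arrays, and the mean of the 8 genes in black. Lines only join the points of one gene, since replicates have no order. Oas2 and Usp18 are highest on knockout replicate 2, Oasl2 and Irf7 on knockout replicate 1, and Irf7 and Oasl2 are lowest on wild type replicate 3.

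Likeness of pattern was measured as the root mean square difference between centred log2 values over the 6 arrays, against 11860 other tested genes. Closest to Oas2 were Ppm1e (0.15), a protein phosphatase, Jun (0.15), a subunit of the AP-1 transcription factor, Stxbp4 (0.16), a syntaxin-binding protein, Tlr4 (0.20), the receptor for bacterial lipopolysaccharide, and Mien1 (0.21). Jun, for example, read 3995, 4221 and 4101 in wild type and 5262, 8547 and 6827 in knockout mucosa. The log2 differences between genotypes of the genes closest to Oas2 lay from 0.53 (Mien1) to 0.72 (Jun). The genotype difference, on which Oas2 was chosen, is part of this distance, so the list does not show shared regulation. Among the other tested genes of the group the nearest to Oas2 was Ifit3 (0.26), followed by Isg15 (0.29) and Usp18 (0.30). Ifit2 (0.48) was the farthest of them. Interferon pathway genes outside the group were counted with the 11860. Ifit3 came after 68 other genes, so its distance to Oas2 was not the smallest on the array. Closest to the average profile of the 8 genes were Naa20 (0.05), Pold4 (0.05), Ywhaq (0.05), Sct (0.06) and Itgav (0.06). Among the 8 genes, Isg15 (0.08) and Ifit3 (0.09) lay nearest to that average and Oas2 (0.29) farthest from it. Each gene was part of the average it was set against.

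Other genes of the interferon pathway were taken from lists of relatives, ligands, receptors, signalling proteins, sensors, effectors and GTPases, each by its brightest probe. Of 114 listed genes 105 had a named probe, 32 of these lay at background on all arrays and 75 entered the test. By limma 0 of the 75 passed an adjusted p of 0.05 in either direction (11 had an unadjusted p under 0.05, where 1.73% of all tested probes did). The knockout mean was higher for 65 and lower for 10, where 79.5% of all tested named genes were higher. The median log2 difference was 0.22 against 0.10 over all tested probes. After quantile normalization it was 0.10 against 0.0029, and 57 of the 75 were higher, against 11582 of the 22640 tested probes. The counts of the single lists below stand beside these same shares.

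Among the relatives of the OAS and IFIT genes, 6 of 10 entered the test, 5 higher and 1 lower. Oas1g, a synthetase close in sequence to Oas1a, read 7381, 7567 and 6441 in wild type and 8842, 12851 and 8825 in knockout mucosa (log2 difference 0.49, SE 0.18), with all knockout arrays higher. Oasl1 overlapped between groups, at 28500 to 45406 and 44831 to 55289 (0.45, SE 0.19). Ifit1bl1, an Ifit1-like gene named here after its values were seen, read 1841, 2080 and 3014 against 2619, 6743 and 5828 (log2 difference 1.05, SE 0.38), also with overlap. Members of this family are close in sequence, so a probe may also read a relative and single members are uncertain, which was not tested.

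The enzymes that attach ISG15 were measured as the activating enzyme Uba7, the conjugating enzyme Ube2l6 and the ligase Trim25. Uba7 read 17102, 13685 and 11713 in wild type and 15763, 25636 and 20585 in knockout mucosa (log2 difference 0.53, SE 0.22). Its groups overlapped through knockout replicate 1. Ube2l6 lay at background on all arrays (941 to 1098), and Trim25 differed by 0.10 (SE 0.19).

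Interferon transcripts themselves were mostly not measurable. Of 17 ligand genes with a probe, 12 lay at background on all arrays, among them Ifnb1 (730 to 925). The 5 that entered the test had a median of -0.06, with 1 higher and 4 lower in the knockout. Of the receptor genes, Ifnar1 lay at background (679 to 803), Ifnar2 differed by -0.03 (SE 0.14), and 4 of 5 tested were higher.

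All 11 tested genes of JAK-STAT and IRF signalling were higher, with a median of 0.22. Irf1, a transcription factor induced by interferon gamma, read 18478, 17467 and 9501 in wild type and 27929, 29918 and 14448 in knockout mucosa (log2 difference 0.66, SE 0.36). Knockout replicate 3 fell below 2 wild type arrays there. Stat2 and Irf9, transcription factors of the type I interferon response, differed by 0.30 (SE 0.20) and 0.32 (SE 0.21), and Irf3, which starts interferon production, by 0.06 (SE 0.14). After quantile normalization 9 of the 11 were higher and the median was 0.07.

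Of 10 tested sensors and adaptors, 8 were higher, near the share of 79.5% among all tested named genes, with a median of 0.23. Ifih1, the sensor of long double-stranded RNA, read 1745, 1597 and 1751 in wild type and 2047, 2100 and 2138 in knockout mucosa (log2 difference 0.30, SE 0.11), without overlap. Ddx58, the sensor RIG-I, differed by 0.20 (SE 0.13) with overlap, and Zbp1, the sensor of left-handed nucleic acid, by -0.03 (SE 0.11).

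The largest list held 28 tested effectors, 26 higher and 2 lower, with a median of 0.22. The genes fixed by name differed by 0.12 to 0.38. Mx1 and Mx2, genes of the dynamin-like GTPase family, differed by 0.20 (SE 0.18) and 0.12 (SE 0.17). Rsad2, the antiviral enzyme viperin, differed by 0.38 (SE 0.33) and Bst2, which tethers virions, by 0.12 (SE 0.17). The RNA-dependent kinase gene Eif2ak2 differed by 0.24 (SE 0.28), the RNA editing enzyme gene Adar by 0.29 (SE 0.29), Ifi27 by 0.26 (SE 0.17), Ifitm3, which blocks viral entry, by 0.14 (SE 0.16) and Rtp4 by 0.21 (SE 0.12). The groups of Rtp4 did not overlap (988 to 1175 in wild type and 1251 to 1287 in knockout), and those of the other genes just named did. Rtp4 was above background on 0 wild type arrays and on 3 knockout arrays, close to it. Mx1 was above background on 2 wild type and 3 knockout arrays, Mx2 on 1 and 2, and Bst2 on 1 and 3. All 7 tested interferon-inducible GTPases were higher, with a median of 0.50, and Igtp differed by 0.77 (SE 0.27) while Irgm1 differed by 0.04 (SE 0.19).

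**Figure D4:**
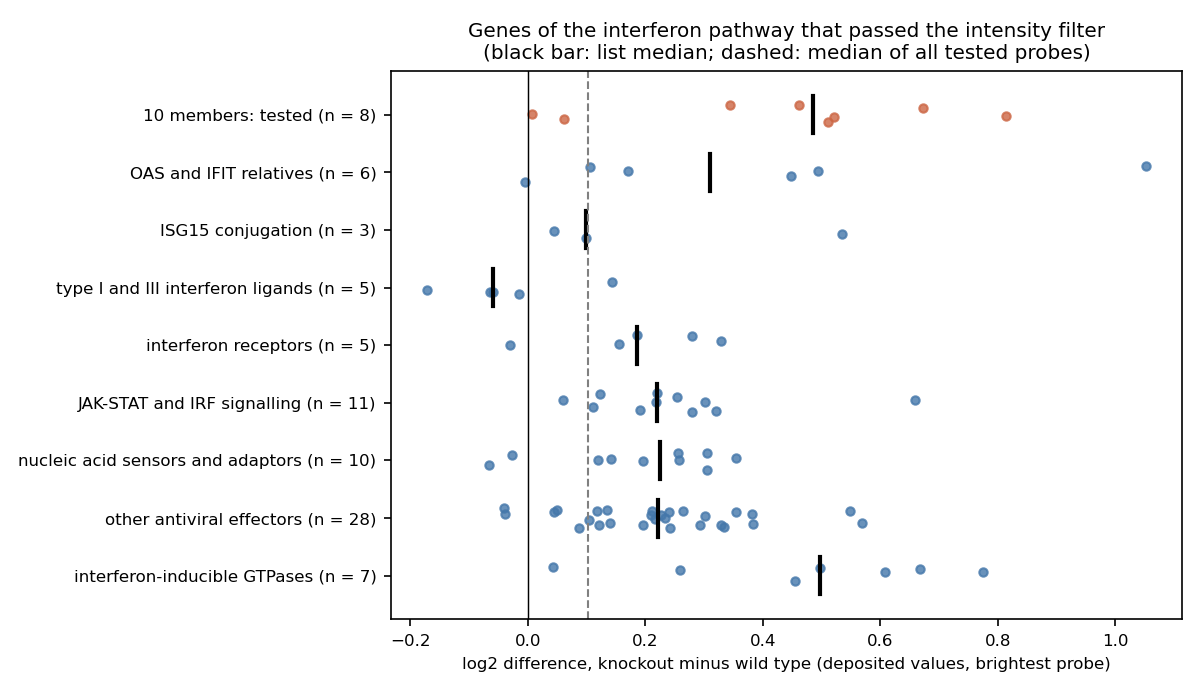
Log2 difference (knockout minus wild type, deposited values) of each tested gene of the interferon pathway by its brightest probe, with a black bar at the median of each list and a dashed line at 0.10, the median of all tested probes. The 8 tested genes of the group have a median of 0.49 and the 7 GTPases one of 0.50, while the signalling, sensor and effector lists lie at 0.22 to 0.23 and the interferon ligands at -0.06.

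Markers of immune cells that express interferon-induced genes were read on the same arrays. Of 8 macrophage genes 0 lay at background on all arrays. Their summed intensity was 16995 to 24153 in wild type and 21592 to 26782 in knockout mucosa, with overlap. The knockout mean was higher for 7 of them and lower for 1, with a median log2 difference of 0.20. Adgre1, the F4/80 antigen, differed by 0.19 (SE 0.20). Of 9 T and NK cell genes 8 lay at background on every array (summed intensity 8139 to 8784 and 8069 to 8657), Cd3d, Cd4, Cd8a and Ncr1 among them, and of 5 B and plasma cell genes 4 did (4522 to 4737 and 4422 to 4739). The plasmacytoid dendritic cell list gave 93414 to 398845 in wild type and 85238 to 104945 in knockout mucosa. Its top value was Klk1, a kallikrein at 343039 on wild type replicate 3, where the pancreatic acinar genes were highest. Of the 7 genes of that list, 2 lay at background on all arrays. Siglech, the defining lectin of those cells, read 2547 to 3791 and 2689 to 4187, with overlap. Ly6d, a surface antigen also made by other cells, read 8328 to 13650 in wild type and 17275 to 17786 in knockout mucosa (log2 difference 0.66, SE 0.19), without overlap. The transcription factor gene Spib read 980 to 1056 and 1157 to 1233 (log2 difference 0.22, SE 0.11), also without overlap and above background on 2 knockout arrays alone. Tcf4 overlapped (log2 difference 0.08, SE 0.19). All 6 tested smooth muscle genes had a higher knockout mean (median log2 difference 0.58), with a summed intensity of 38746 to 110694 in wild type and 48930 to 251975 in knockout mucosa, the highest on knockout replicate 1. Without that array the log2 difference was 0.93 for Oas2, 0.58 for Oasl2, 0.54 for Usp18, 0.44 for Irf7, 0.41 for Ifit3 and 0.37 for Isg15. The part of macrophages, plasmacytoid dendritic cells or smooth muscle in the differences of the 10 genes was not tested.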

How the data were processed

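Total RNA of 6 gastric mucosa samples was hybridised to Illumina arrays as biotin-labelled cRNA, per the labels. The values used are the deposited probe intensity table, on a linear scale, which the authors had scaled to a common median of 1000 for each array, as the values show. Scanner, software, background correction and genome build: not given in the sources used here. That background was not subtracted is inferred from the values, none of which lies near 0. Probes were named from the platform annotation: 34885 had 1 gene symbol, 18 several and 10378 none, and 34807 matched the GRCm38.p6 gene table.

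Intensities were log2 transformed (floor 16, which no value reached). The 22640 probes with a mean log2 value above the median probe, about 990.8 in intensity, entered a comparison of the genotypes by limma 3.58.1 (lmFit and eBayes, two-sided, R 4.3.3), and p-values were adjusted by Benjamini-Hochberg over all of them. A gene is given by its brightest probe. Probes under the filter have a standard error from the same fit over all 45281 probes. Tested on simulated data for this comparison (22640 probes, independent normal noise), limma recovered 46 of 100 simulated 2-fold changes, recovered 80 of 100 simulated 4-fold changes and made 9 calls among unchanged probes. The number of arrays limits the precision.

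The 10 genes and the lists were chosen with earlier results of these data known. Named were all 10 genes with every probe, a fixed set of pathway genes (not all of them reported here), and the 5 genes most like Oas2 and most like the average profile. Ifit1bl1, Trim25 and single marker genes were named after their values were seen. The alternatives were other scalings, filters and variance models, array weights, blocks, the mean of a gene's probes and leaving out arrays. Quantile normalization together with the title block was chosen after seeing the data. Python 3.11.15 and matplotlib 3.10.9 drew the figures.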

Additional observations from a re-analysis of the deposited data

How the results depend on the processing

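Over the 18 alternatives, 8 or 9 of the 10 genes were higher in the knockout. The count turned on Ifit2, which changed sign in 8 alternatives, and on Oas1a, which did so with array weights. The other 8 genes kept their sign in all 18. Other filters, the trended robust variance and the replicate block cannot change a difference, so signs were fixed there. Oas2 ranged from 0.49 to 1.08, Oasl2 from 0.40 to 0.79, Ifit3 from 0.23 to 0.57, Isg15 from 0.22 to 0.40, Irf7 from 0.29 to 0.65 and Usp18 from 0.30 to 0.66. The median of the 10 genes, 0.40, was 0.29 after quantile normalization, 0.30 after cyclic loess, 0.26 after normexp, 0.27 with the mean of a gene's probes and 0.23 with quantile normalization and the title block. Leaving out single arrays gave 0.31 (without wild type replicate 3) to 0.48 (without knockout replicate 3). 

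By limma, 2 probes were called between genotypes over the whole array, 1816 with array weights, 0 without both arrays with squamous transcripts and 0 to 3 without single arrays (3 without wild type replicate 3, and 0 without any other). The replicate number as a block gave 0. Same-numbered arrays had correlations of their deviations of 0.04, -0.30 and 0.53. With 3 arrays per group, these mixed values do not settle whether the numbers pair the samples. For the title number, 164 probes were called, against 631 after quantile normalization, 449 after cyclic loess, 645 after normexp, 384 with no filter, 1387 among probes above background on 3 arrays, 2375 with a trended robust variance, 40 with array weights and 1 with the replicate block. Without single arrays it was 1 to 4349: leaving out wild type replicates gave 365 (replicate 1), 11 (replicate 2) and 246 (replicate 3), and leaving out knockout replicates gave 4349 (replicate 1), 39 (replicate 2) and 1 (replicate 3). Irf7 passed for the title number without knockout replicate 1 (limma difference -0.64, adjusted p = 0.0434). The causes were not tested. Signal close to background limits Oas1a, Oas3, Ifit1 and Ifit2.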
